A study of Arabidopsis thaliana with 18 samples.

Results

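The genes described here encode nuclear subunits of the thylakoid electron transport chain: photosystem I (PSAD to PSAO), photosystem II (PSBO, PSBP, PSBQ, PSBR, PSBTN, PSBW, PSBX and PSBY), the Rieske protein of the cytochrome b6f complex (PETC), plastocyanin, ferredoxin, leaf-type ferredoxin-NADP+ reductase (LFNR), ATP synthase subunits, and the cyclic flow proteins PGR5 and PGRL1A. They were chosen by gene identity from a list of 33 loci, without light-harvesting proteins. No measured value entered that rule, but earlier results of these data were known when it was made. Of the 33, 32 were measured among 34212 genes, and all 32 were among the 16747 genes that passed the filter on zeros and were tested. ATPC1 was not analysed here.

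RNA-seq libraries came from whole 5-day-old Columbia-0 (Col-0) seedlings kept in the dark once germination had been induced, on medium without sucrose. Groups of 3 libraries were collected in the dark or after 15, 30, 60, 150 or 360 min of white light (WL). Every group shared the wild-type genotype and the dark growth, and a whole seedling holds root, hypocotyl and cotyledons together. Longer light also meant a later collection and an older seedling, and these cannot be told apart.

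Photosystem II takes electrons from water, the cytochrome b6f complex and plastocyanin pass them on, and photosystem I lifts them to ferredoxin, from which FNR makes NADPH. Cyclic flow through PGR5 and PGRL1 returns electrons from ferredoxin to the chain, and the proton gradient drives the ATP synthase. The chloroplast genome encodes the reaction centre cores, whereas the subunits described here are made in the cytosol and imported. Etiolated seedlings hold etioplasts, which lack a working chain, and deetiolation is the stage at which it is built.

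Libraries held between 3577432 and 16156302 estimated counts, of which plastid 23S ribosomal RNA, encoded by 2 near-identical genes, took 3.37% to 83.9%. The 32 genes together held 10008 to 305216 counts per library. Dark replicate 2 stood apart: 28 of the 32 genes had their highest dark value in it, at a median 1.82 times the mean of the other 2, whereas it was highest for 31.2% of all genes. Seed storage and oil body markers (6 genes) summed to 452 TPM (a length-corrected share of transcripts, recomputed without the 23S genes) in dark replicate 2, against 1.35 to 183 TPM in the other libraries, and their part in the levels was not tested. The library of 60 min replicate 3 had the lowest total and the lowest 23S share. At 360 min, replicate 1 was lowest for 23 of the 32 genes, against 45% of all genes, and had the highest 23S share. Light-induced control genes (ELIP1, ELIP2, CHS, HY5 and RBCS1A) were called higher at 150 and 360 min, 5 of 5 each. Root markers summed to 70.6 to 500 TPM, which came from CASP1 and CASP2, while COBL9, EXPA7 and EXPA18 had group means of at most 0.705 TPM.

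After 360 min of WL, 26 of the 32 genes were higher than in the dark and 0 were lower. A call is a Benjamini-Hochberg adjusted p below 0.01 over all 16747 genes by the quasi-likelihood test of edgeR, and 3.47% of them were called higher and 0.806% lower in the same comparison. The median log2 fold change was 2.74 over the 32 genes and -0.03 over all genes tested. It ranged from 0.30 for PSAE2 to 4.08 for FD2 and PSAK, a fold of 16.9 for PSAK. In 27 of the 32 genes every 360 min library lay above every dark library in counts scaled to a common library size, as in 10.5% of all genes. Statements below on how the libraries of a gene overlap refer to these scaled counts unless TPM is named. In TPM without the plastid ribosomal RNA, these groups overlapped also for PSAD2, PSAL, PSBP1, PETC, PETE1 and ATPD. For PETC the lowest 360 min value was 107 TPM and the highest dark value 169 TPM. For PSAD2 they were 252 and 267 TPM. Over the whole time course 30 of the 32 genes changed, against 5.02% of all genes; PSAE2 and PSBY were the exceptions (edgeR adjusted p = 0.074 and 0.23). In bulk RNA, a larger share of cells that express these genes and more of their RNA per cell cannot be told apart.

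The direction depended little on the scaling. With counts scaled to library totals instead of by TMM (trimmed mean of M-values), the median of all genes at 360 min shifted to -0.65 with the 23S RNA in the totals and to -0.39 without it, and the median of the 32 genes lay 2.93 and 2.85 above it, against 2.77 with TMM. PSAE2 was the exception, at -0.31 and -0.14. The number called was 0 under the totals with 23S RNA, where 0 of all 16747 genes were called, and 17 under those without it, where 493 were. With the 23S share as a covariate it was 29 (1169 of all genes). Leaving out the 4 libraries over 75% 23S RNA left only replicate 3 at 360 min. The median log2 fold change of the 32 genes was then 3.15.

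**Figure D1:**
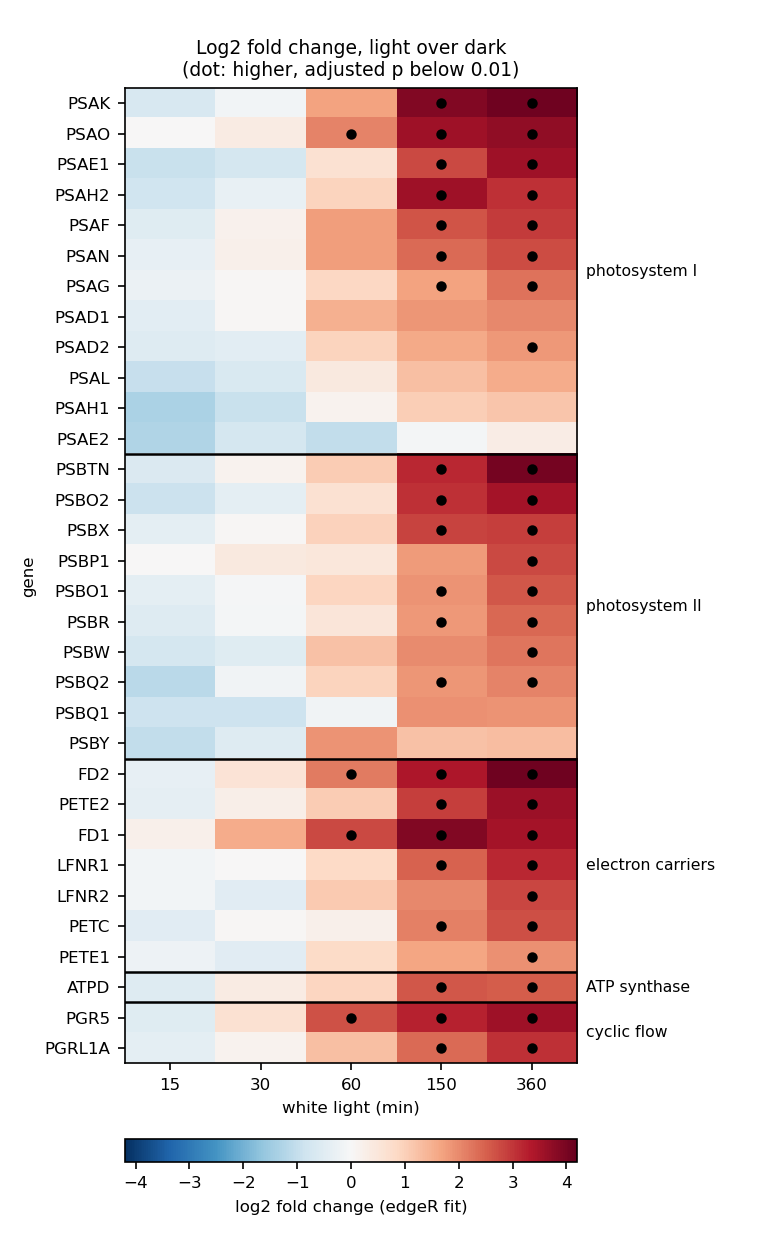
Fitted log2 fold change of each gene at 15, 30, 60, 150 and 360 min of WL over the dark, with genes in rows grouped by role and sorted by their change at 360 min, and dots marking calls at an adjusted p below 0.01. Dots numbered 4 at 60 min, 21 at 150 min and 26 at 360 min. FD1, FD2, PGR5 and PSAO carried them at 60 min. PSAE2 carried none, with changes of -0.75 at 30 min, -1.03 at 60 min and 0.30 at 360 min.

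No gene was called in the first 30 min. At 15 min, 0 of the 32 genes were called by edgeR in either direction, as were 0% of all genes, and 29 had a fitted change below 0, with a median of -0.51, whereas 49.3% of all genes were above 0. At an unadjusted p under 0.05, 0 were higher and 6 lower (0.287% and 0.597% of all genes; PSAE2, PSAH1, PSAH2, PSAL, PSBO2 and PSBQ2), and DESeq2 also called 0. Without dark replicate 2 that median was -0.15. At 30 min edgeR and DESeq2 called 0, against 0.0836% of all genes called higher by edgeR; 1 gene, FD1, was higher at an unadjusted p under 0.05 (1.52% of all genes), and the median was -0.01, or 0.28 without dark replicate 2.

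At 60 min, FD1, FD2, PGR5 and PSAO were called higher, 4 of 32 against 0.8% of all genes, and 18 were higher at an unadjusted p under 0.05 (6.68% of all genes). At 60 min 0 were called lower, as were 0.0478% of all genes. The median log2 fold change was 0.94. Leaving out dark replicate 1 or dark replicate 3 left 2 calls. At 150 min 21 genes were called higher (2.2% of all genes) and 0 lower (0.561%), with a median of 2.25, and 29 had every 150 min library above every dark library, as in 12.5% of all genes. At an unadjusted p under 0.05, 1 gene was lower at 60 min (PSAE2, log2 fold change -1.03; 4.54% of all genes) and 0 were lower at 150 or 360 min (5.8% and 8.65% of all genes).

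Between consecutive times, the fitted change was largest from 30 to 150 min. From 30 to 60 min the median log2 change was 1.11, with 0 genes called by edgeR (0.0657% of all genes called higher), 24 higher at an unadjusted p under 0.05 (5.08% of all genes) and 6 called by DESeq2 (136 of all genes). From 60 to 150 min the median was 1.13 and 1 gene, PSAH2, was called (0.119% of all genes), with 22 higher at an unadjusted p under 0.05 (4.81% of all genes) and 8 called by DESeq2 (134 of all genes). The edgeR count of 1 was 0 without 150 min replicate 2, 2 without dark replicate 2 or 360 min replicate 1, and 4 without 360 min replicate 3. From 150 to 360 min the median was 0.33, with 0 called by edgeR (0% of all genes) and 0 by DESeq2 (17 of all genes). In that step 1 gene, PSBTN, was higher at an unadjusted p under 0.05 (3.39% of all genes). The group mean was highest at 360 min for 27 genes, at 150 min for 4 (PSAH2, FD1, ATPD and PSBQ1) and at 60 min for PSBY.

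The genes differed in how much of the change was in place at 60 min. FD1, a minor leaf ferredoxin, had reached 79.1% of its 360 min log2 fold change, and PGR5 75.1%, whereas the median gene had reached 37.2%. PETC was at 8.09% and PSBQ1 at -7.05%. The extremes were PSBY at 145% and PSAE2 at -349%, both with changes at 360 min that were not called. By 150 min the median was 87.3%. These percentages share the dark libraries and are given as a description.

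Among the 12 photosystem I genes, 8 were called higher at 360 min. PSAK (AT1G30380), a membrane subunit at the side of the light-harvesting antenna, changed most. It had 8296, 7737 and 5907 normalized counts (counts scaled by TMM to a common library size) in the 360 min libraries, against 296.7, 595 and 403 in the dark. The groups were far apart, and the 150 min libraries, at 4230, 7257 and 7559, were also above all dark ones (log2 fold change at 360 min 4.08 ± 0.45, SE; edgeR adjusted p = 1.98e-06). PSAO (AT1G08380), which takes part in the docking of mobile antenna, rose by 3.73 ± 0.37 (log2, SE). PSAF and PSAN, subunits of the plastocyanin side, rose by 2.95 ± 0.39 and 2.72 ± 0.42. PSAG, the membrane subunit related to PSAK, rose by 2.27 ± 0.39. PSAK held 293, 178 and 337 normalized counts after 15 min, 358, 370.1 and 458 at 30 min, 2197, 1119 and 903 at 60 min and 4230.1, 7257 and 7559 at 150 min. Its 60 min libraries already lay above the dark ones.

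PSAD, the stromal subunit on which ferredoxin docks, is encoded by PSAD1 and PSAD2. PSAD1 (AT4G02770) had 1093, 2745 and 5042 normalized counts at 360 min, against 516, 1178 and 506 in the dark. The lowest 360 min library lay below dark replicate 2, and the change of 2.01 ± 0.53 was not called (edgeR adjusted p = 0.018). PSAD2 (AT1G03130) had 1549, 1355 and 2431 at 360 min, against 373, 760 and 365 in the dark. These groups did not overlap, and the change of 1.83 ± 0.38 was called (edgeR adjusted p = 0.0028). The calls turned on single libraries. PSAD1 passed without 360 min replicate 1 (2.42, edgeR adjusted p = 0.0051) or 60 min replicate 3 (2.01, 0.0097). Its change was 2.82 without the 4 libraries over 75% 23S RNA, which left only replicate 3 at 360 min. PSAD2 failed without dark replicate 1 (1.66, edgeR adjusted p = 0.028) or dark replicate 3 (1.65, 0.025). Between these times PSAD1 held 683, 328 and 626 normalized counts after 15 min, 795, 585 and 922 at 30 min, 907, 1781 and 3462 at 60 min and 3291, 2839 and 1909 at 150 min. PSAD2 held 355, 272 and 404 normalized counts after 15 min, 386, 319 and 394 at 30 min, 624, 952 and 1266 at 60 min and 1817, 1597 and 1139 at 150 min. By 150 min every library of both genes was above the dark ones.

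PSAE is the second stromal subunit of the ferredoxin side, and its copies behaved differently. PSAE1 (AT4G28750) had 5376, 5215 and 2012 normalized counts at 360 min, against 136, 667 and 259 in the dark. All 360 min libraries were above the dark ones, and the change was 3.56 ± 0.59 (edgeR adjusted p = 0.000281). It was 2.53 without the 4 libraries over 75% 23S RNA, which left only replicate 3 at 360 min. PSAE2 (AT2G20260) had 384, 674 and 703 at 360 min, against 242, 840 and 354 in the dark. The groups overlapped, and the change of 0.30 ± 0.42 was not called (edgeR adjusted p = 0.73). It was -0.02 without dark replicate 1 and 0.98 without dark replicate 2. Between these times PSAE1 held 183, 139 and 236 normalized counts after 15 min, 202, 114 and 320.3 at 30 min, 827, 495 and 341 at 60 min and 1202, 2845 and 3212 at 150 min. PSAE2 held 262, 123 and 207 normalized counts after 15 min, 327, 234 and 293 at 30 min, 175, 321 and 206 at 60 min and 448, 517 and 395 at 150 min. The 150 min libraries were all above the dark ones for PSAE1 and within the dark range for PSAE2.

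PSAH, with PSAL the place where the mobile antenna binds photosystem I, is encoded by PSAH1 and PSAH2. PSAH2 (AT1G52230) had 1272, 1196 and 1677 normalized counts at 360 min, against 95.2, 266 and 127 in the dark. The groups were well apart, and the change was 3.08 ± 0.40 (edgeR adjusted p = 2.04e-05). PSAH1 (AT3G16140) had 1375, 2110 and 1520 at 360 min, against 289, 1503 and 439 in the dark. Dark replicate 2 lay within the range of the light libraries, and the change of 1.16 ± 0.45 was not called (edgeR adjusted p = 0.13), whereas without that library it was 2.20 (adjusted p = 0.0018). PSAL likewise had a change of 1.56 ± 0.44 (adjusted p = 0.028) and of 2.42 (adjusted p = 0.00084) without dark replicate 2, which held 3771 counts against 1112 and 1083 in dark replicates 1 and 3. Between these times PSAH2 held 119, 79.0 and 77.0 normalized counts after 15 min, 91.9, 121 and 178 at 30 min, 259, 321 and 353 at 60 min and 1684, 2336 and 1746 at 150 min. PSAH1 held 383, 209 and 298 normalized counts after 15 min, 397, 357 and 422 at 30 min, 981, 682 and 831 at 60 min and 1054, 1597 and 1929 at 150 min. The 150 min libraries overlapped the dark ones for PSAH1 but not for PSAH2.

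PSAH2 was also the only gene of the 32 called by edgeR between 60 and 150 min. It had 1684, 2336 and 1746 normalized counts at 150 min, against 259, 321 and 353 at 60 min. The lowest 150 min library was far above the highest 60 min library, a change of 2.62 ± 0.40 (edgeR adjusted p = 0.0017), which was lost without 150 min replicate 2. At 360 min every library was lower than every 150 min library, with a change of -0.48 ± 0.37 that was not called (edgeR adjusted p = 0.95).

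Of the 10 photosystem II genes, 8 were called higher at 360 min. PSBTN (AT3G21055), a small lumenal peptide of photosystem II, changed most: it had 7614, 14126 and 7290 normalized counts at 360 min, against 395, 729 and 671 in the dark. Every 360 min library was far above every dark library. The change was 4.02 ± 0.44 (edgeR adjusted p = 1.98e-06). The membrane subunits PSBX and PSBW rose by 2.91 ± 0.37 and 2.26 ± 0.48, and PSBR, which helps the extrinsic proteins bind, by 2.41 ± 0.42. PSBW lost its call without dark replicate 1 (1.97, edgeR adjusted p = 0.031), dark replicate 3 (2.16, 0.025) or 360 min replicate 2 (2.18, 0.014). Its change was 2.54 without the 4 libraries over 75% 23S RNA, which left only replicate 3 at 360 min. PSBTN held 434, 333 and 414 normalized counts after 15 min, 593, 559 and 854 at 30 min, 1709.8, 1239 and 834 at 60 min and 3613, 5163 and 7239 at 150 min. Its 60 min libraries were also all above the dark ones.

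The extrinsic proteins PSBO, PSBP and PSBQ cap the water-oxidising manganese cluster on the lumenal side. PSBO1 (AT5G66570) had 21702, 22379 and 12699 normalized counts at 360 min, against 2251, 4196 and 2880 in the dark. PSBO2 (AT3G50820) had 1165, 2075 and 3963 at 360 min, against 159.7, 328 and 145 in the dark. Neither gene had overlapping groups, and the changes were 2.61 ± 0.40 and 3.50 ± 0.47 (edgeR adjusted p = 0.000142 and 2.69e-05). PSBP1 (AT1G06680) rose by 2.76 ± 0.58, with 22158 counts in 360 min replicate 3 against 3316 and 6633 in replicates 1 and 2. Without 360 min replicate 3 its change was 1.65 (adjusted p = 0.024), and it also lost its call without dark replicate 2 (2.74, 0.022) or dark replicate 3 (2.41, 0.029). At the times in between PSBO1 held 2644, 2018 and 2288 normalized counts after 15 min, 3506, 2341 and 3187 at 30 min, 7396, 5944 and 4153 at 60 min and 8313, 11544 and 14263 at 150 min. PSBO2 held 127, 115 and 97.2 normalized counts after 15 min, 205, 173 and 97.2 at 30 min, 273, 437 and 285 at 60 min and 1911, 2179 and 1198 at 150 min. Both were above the dark in every 150 min library.

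PSBQ1 (AT4G21280) had 341, 579 and 2082 normalized counts at 360 min, against 188, 489 and 141 in the dark. Its groups overlapped, and the change of 1.88 ± 0.58 was not called (edgeR adjusted p = 0.048). PSBQ2 (AT4G05180) had 776, 723 and 824 at 360 min, against 148.7, 291 and 103 in the dark. Its libraries agreed closely and stood above all dark ones, with a change of 2.09 ± 0.42 (edgeR adjusted p = 0.0023). That call was lost without dark replicate 1 (1.96, edgeR adjusted p = 0.022) or dark replicate 3 (1.82, 0.021). Leaving out the 4 libraries over 75% 23S RNA left only replicate 3 at 360 min. PSBQ2 then changed by 2.21 and PSBQ1 by 2.96. At the times in between PSBQ1 held 179.6, 114 and 152 normalized counts after 15 min, 164, 174 and 114 at 30 min, 123, 171 and 448 at 60 min and 1293, 1009.8 and 813 at 150 min. PSBQ2 held 104, 91.6 and 54.5 normalized counts after 15 min, 135, 139 and 214 at 30 min, 231, 262 and 552 at 60 min and 584, 662 and 751 at 150 min. No 150 min library of either gene overlapped the dark ones.

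PSBY (AT1G67740), a small membrane subunit near cytochrome b559, was the most variable gene. It had 305, 1178 and 3232 normalized counts at 360 min, against 327, 1389 and 196 in the dark. The groups overlapped, the change was 1.31 ± 0.90, and it was not called (edgeR adjusted p = 0.44). At 60 min replicate 3 alone held 5793 counts, 8.63 times the mean of the other 2 libraries. PSBY held 349, 224 and 359 normalized counts after 15 min, 413, 438 and 457 at 30 min, 424, 918 and 5793 at 60 min and 2080.2, 1379 and 1005 at 150 min. Its groups at 150 min and in the dark overlapped.

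All 7 carrier genes were called higher at 360 min. FD2 (AT1G60950), the main leaf ferredoxin, had 7987, 17944 and 14105 normalized counts at 360 min, against 511, 1277 and 571 in the dark. FD1 (AT1G10960) had 1684, 2748 and 3138 at 360 min, against 150.2, 315 and 207 in the dark. Both genes were several times above every dark library, with changes of 4.08 ± 0.46 and 3.49 ± 0.43 (edgeR adjusted p = 2.99e-06 and 9.79e-06). At 30 min FD1 had 534, 611 and 847 counts, all above the dark libraries, but its change of 1.56 ± 0.40 was not called (edgeR adjusted p = 0.21). At 60 min it had 1461, 2219 and 889 counts and was called (2.76 ± 0.42, adjusted p = 0.000424). FD2 held 719, 445 and 706 normalized counts after 15 min, 1272, 818 and 1459 at 30 min, 3699.9, 2885 and 4244 at 60 min and 7041, 9550.2 and 8309.8 at 150 min. FD1 held 285, 186 and 311 normalized counts after 15 min, 534, 611 and 847 at 30 min, 1461, 2219 and 889 at 60 min and 2560.0, 4102 and 3362 at 150 min. Both genes were above the dark in every 60 min library.

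Plastocyanin is encoded by PETE1 and PETE2. PETE2 (AT1G20340) had 4786, 9960 and 7526 normalized counts at 360 min, against 418, 747 and 695 in the dark. PETE1 (AT1G76100) had 238, 416 and 434 at 360 min, against 79.8, 128 and 76.2 in the dark. Neither gene had overlapping groups, and the changes were 3.58 ± 0.44 for PETE2 and 1.93 ± 0.45 for PETE1 (edgeR adjusted p = 9.31e-06 and 0.0073). The PETE1 call was the least stable of the carriers, lost in 12 of 18 fits that each left out 1 library: any dark, 15 min or 30 min library, 150 min replicate 2, or 360 min replicate 2 or 3 (1.78 to 2.22, adjusted p = 0.0102 to 0.049). In the other libraries PETE2 held 538, 336 and 548 normalized counts after 15 min, 701, 470.2 and 1054 at 30 min, 1608, 1421 and 861 at 60 min and 3320.0, 5475 and 5105 at 150 min. PETE1 held 88.2, 86.9 and 72.3 normalized counts after 15 min, 80.9, 63.3 and 62.4 at 30 min, 66.6, 181 and 248 at 60 min and 259, 355 and 294 at 150 min. At 60 min PETE2 was above the dark in every library, whereas PETE1 overlapped with it.

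LFNR1 (AT5G66190) had 3229, 4491 and 4931 normalized counts at 360 min, against 442, 522 and 442.5 in the dark. LFNR2 (AT1G20020) had 412, 759 and 1514 at 360 min, against 150.2, 107 and 127 in the dark. The libraries of LFNR1 were closer together than those of LFNR2, although neither gene's groups overlapped. The changes were 3.17 ± 0.43 and 2.81 ± 0.60 (edgeR adjusted p = 3.13e-05 and 0.0035), and PETC, the Rieske iron-sulfur protein, rose by 2.72 ± 0.50 (adjusted p = 0.000851). LFNR2 lost its call without dark replicate 1 (2.94, 0.018), dark replicate 2 (2.69, 0.029), dark replicate 3 (2.80, 0.022) or 360 min replicate 3 (2.19, 0.014), and PETC without dark replicate 1 (2.55, 0.011). In the other libraries LFNR1 held 482, 435 and 372 normalized counts after 15 min, 449, 395 and 581 at 30 min, 606, 1531 and 352 at 60 min and 2691, 2599 and 2539 at 150 min. LFNR2 held 109, 107 and 136 normalized counts after 15 min, 93.5, 142 and 41.9 at 30 min, 109, 189 and 519 at 60 min and 674, 702 and 189 at 150 min. Both genes overlapped with the dark at 60 min and not at 150 min.

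ATPD (AT4G09650), the delta subunit of the chloroplast ATP synthase, had 147, 353 and 1390 normalized counts at 360 min, against 98.2, 125 and 102 in the dark. Its 360 min libraries spanned a wider range than those of any other called gene, and the lowest of them was close to dark replicate 2. The change was 2.55 ± 0.60 (edgeR adjusted p = 0.0074). Without 360 min replicate 3 it was 1.21 (adjusted p = 0.10), and the call was also lost without any 1 dark library, 30 min replicate 1 or 3, or 150 min replicate 2 (2.49 to 2.67, adjusted p = 0.010 to 0.046). ATPD held 109, 58.4 and 54.5 normalized counts after 15 min, 112, 160.0 and 140.1 at 30 min, 129.6, 136 and 338 at 60 min and 942, 586 and 460.2 at 150 min. Every 150 min library was above the dark ones.

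PGR5 and PGRL1A act together in cyclic flow. PGR5 (AT2G05620) had 1668, 2311 and 1405 normalized counts at 360 min, against 71.1, 139 and 248.5 in the dark. PGRL1A (AT4G22890) had 701, 554 and 653 at 360 min, against 91.6, 82.9 and 52.6 in the dark. No library of either group came near the other, with changes of 3.57 ± 0.44 for PGR5 and 3.06 ± 0.40 for PGRL1A (edgeR adjusted p = 1.07e-05 and 2e-05), and both kept their calls when any 1 library was left out. PGR5 was already called at 60 min, with 879, 1172 and 854 counts (2.68 ± 0.43, adjusted p = 0.000764). In the other libraries PGR5 held 106, 94.9 and 116 normalized counts after 15 min, 169.7, 188 and 351 at 30 min, 879, 1172 and 854 at 60 min and 983, 1726 and 1579.7 at 150 min. PGRL1A held 64.0, 41.1 and 66.4 normalized counts after 15 min, 73.1, 74.8 and 108 at 30 min, 231, 126 and 195 at 60 min and 419, 305 and 477 at 150 min. Both genes were above the dark in every 60 min library.

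**Figure D2:**
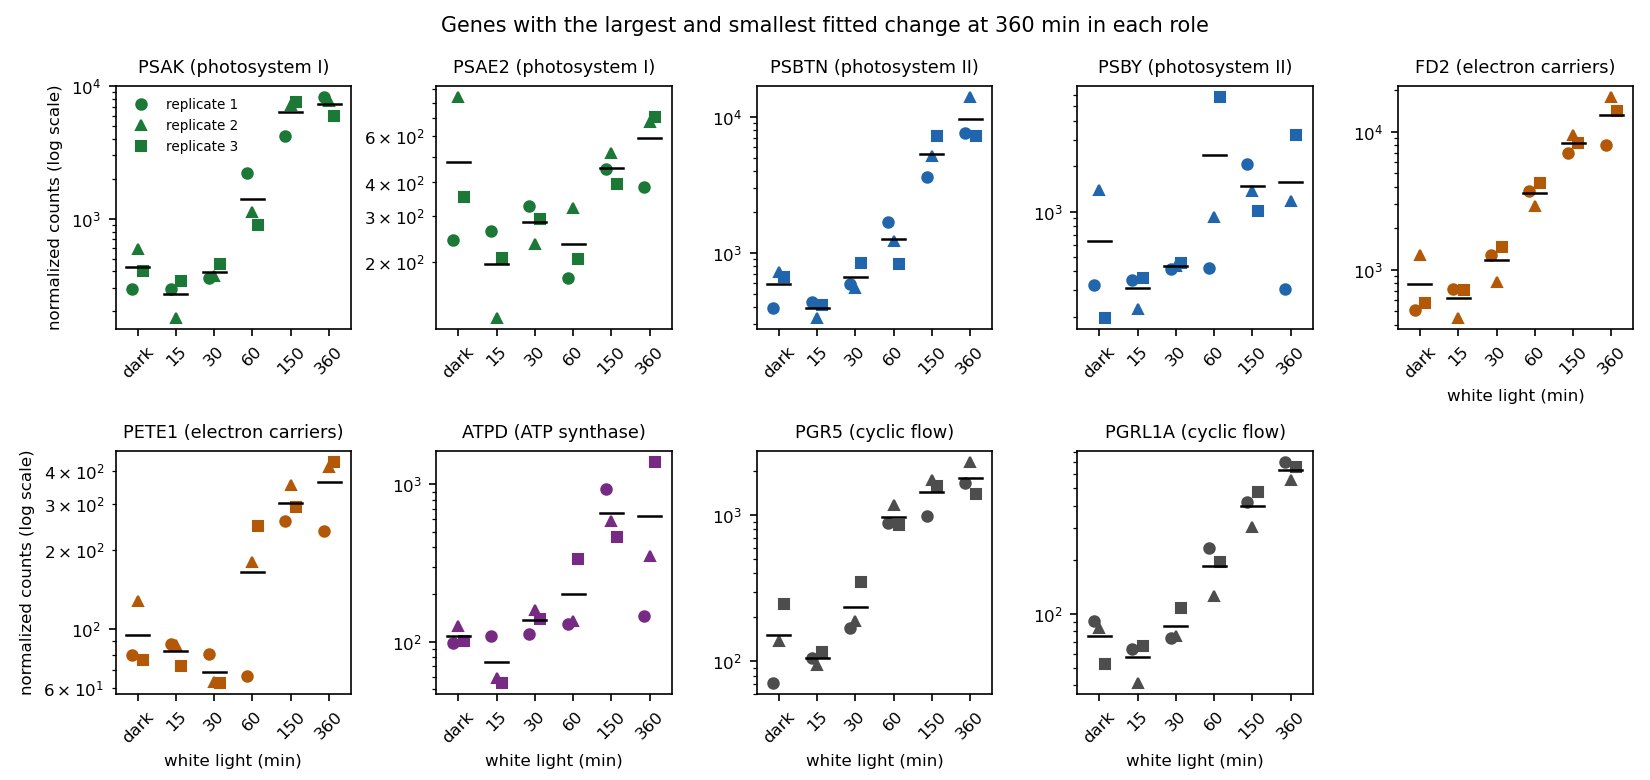
Normalized counts (log scale) in each library against WL exposure for the gene with the largest and the gene with the smallest fitted change at 360 min in each role (ATPD is the single ATP synthase gene); symbols give the replicate and bars the group mean. PSAK, PSBTN, FD2, PGR5 and PGRL1A separate cleanly from the dark by 150 min, whereas PSAE2 and PSBY overlap with it.

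In TPM, which allows levels of genes of different length to be compared, the 32 genes together held 18965, 30715 and 47041 TPM in the 360 min libraries, against 4449, 11181 and 3804 TPM in the dark. Every 360 min library was above every dark library. With the 23S genes kept in TPM this did not hold: the sums were 6060, 12375 and 41045 TPM at 360 min, against 3568, 8167 and 1974 TPM in the dark. Without the 23S genes the mean sum was 6478 ± 4086 TPM in darkness, 3917 ± 1108 TPM after 15 min and 5848 ± 377 TPM after 30 min (SD, n = 3 each). It then reached 12198 ± 4478 TPM by 60 min, 27547 ± 5070.2 TPM by 150 min and 32240.5 ± 14100.3 TPM by 360 min. The mean at 360 min exceeded that at 150 min by less than the spread of either group. Photosystem II genes summed to 15321 ± 8242 TPM at 360 min, against 3246 ± 1688 TPM in the dark, and photosystem I genes to 9929 ± 2956 TPM, against 2440.2 ± 1948 TPM. The carriers summed to 6499 ± 2936 TPM at 360 min, against 723 ± 443 TPM in the dark.

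Levels of single genes spanned a wide range. PSBR was the most abundant in both conditions, at 6520.1 ± 4494 TPM at 360 min, against 1577 ± 711 TPM in the dark. FD2 was at rank 2 at 360 min (3083 ± 1383 TPM) and rank 6 in the dark, and PSAL was at rank 10 at 360 min and rank 2 in the dark. PGRL1A, the partner of PGR5, was among the lowest in both, at 75.2 ± 20.8 TPM at 360 min, against 12.2 ± 5.15 TPM in the dark. Because the replicates of one group differed by more than the step between most neighbours in the order, ranks next to each other were not distinct.

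**Figure D3:**
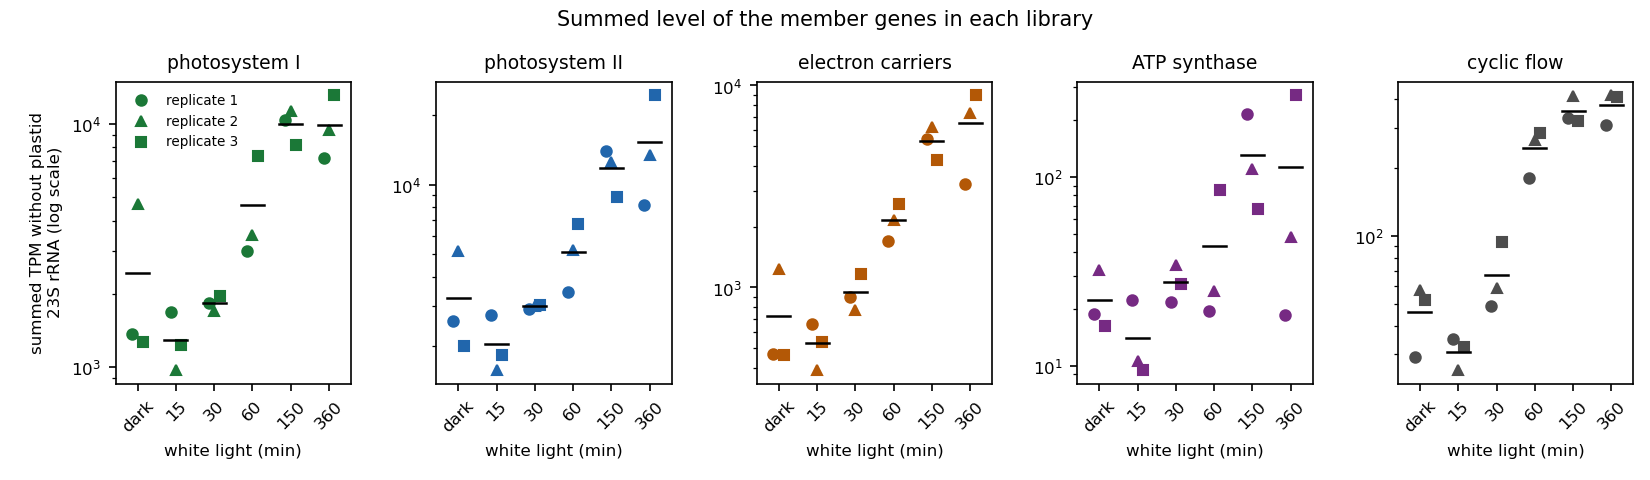
Summed TPM (recomputed without plastid 23S rRNA, log scale) of the genes of each role in each library against WL exposure; symbols give the replicate and bars the group mean of 3 libraries. In the photosystem I, photosystem II and carrier panels 1 dark library lies above the other 2, and in the ATP synthase panel the lowest 360 min library is as low as the dark.

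For 8 subunits, 2 gene copies were measured, and the balance between them was compared as the log2 ratio of TPM (with 1 added to each) in the 6 libraries of 150 and 360 min against the 6 libraries of the dark and 15 min. Both genes of a ratio come from the same library, and the added 1 makes the ratio of low genes depend on it. Of the 8 pairs, 4 shifted by the exact permutation test, two-sided, with adjustment over the 8 pairs. PSAE1 over PSAE2 averaged 1.98 ± 0.93 in the late libraries and -0.83 ± 0.40 in the early ones (SD, n = 6 each). Ratios did not overlap, and PSAE1 was the lower copy in every early library and the higher one in every late library (difference 2.81, exact permutation p = 0.0022, adjusted p = 0.0058). Within each late group this ratio was higher in libraries with more 23S RNA. PSAE1 over PSAE2 was 9.55, 5.30 and 1.96 in the 360 min libraries, with 23S shares of 83.9%, 78.6% and 24.0%. At 150 min it was 1.84, 3.76 and 5.56, with shares of 40.9%, 67.9% and 82.95%. Without the 3 late libraries over 75%, the difference was 2.08 (exact permutation p = 0.012, adjusted p = 0.024, the smallest p that 3 against 6 libraries can give).

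PSAH1 over PSAH2 moved towards the second copy, at 0.06 ± 0.54 in the late libraries and 1.90 ± 0.39 in the early ones (SD, n = 6 each). Late libraries lay on both sides of equal TPM, with ratios from 0.674 to 1.90, whereas PSAH1 was the higher copy in every early library (difference -1.85, exact permutation p = 0.0022, adjusted p = 0.0058). PETE1 over PETE2 averaged -4.57 ± 0.31 late and -3.00 ± 0.41 early (SD, n = 6 each). PETE2 was the higher copy in every library, by a wider margin in the late ones (difference -1.57, exact permutation p = 0.0022, adjusted p = 0.0058). The p of these 3 pairs is the smallest that 6 against 6 libraries can give.

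PSBO1 over PSBO2 averaged 2.65 ± 0.98 late and 3.83 ± 0.32 early, with overlap (difference -1.19, exact permutation p = 0.015, adjusted p = 0.030). That difference lost its call in 5 of 12 leave-one-out tests, without dark replicate 1 or 3 or any 15 min library (-1.25 to -1.11, exact permutation adjusted p = 0.052 to 0.087). It was also lost with 5 added to each TPM in place of 1 (-0.999, adjusted p = 0.066) and against the dark libraries alone (-0.99, adjusted p = 0.29). Like PSAE1 over PSAE2, PSBO1 over PSBO2 was higher in late libraries with more plastid ribosomal RNA. It was 15.5, 9.03 and 2.69 in the 360 min libraries and 3.65, 4.44 and 9.94 in the 150 min libraries. Without the 3 late libraries over 75%, log ratios did not overlap (1.43 to 2.15 late, 3.41 to 4.21 early). The difference was then -2.02 (exact permutation p = 0.012, adjusted p = 0.024). The pairs PSAD1 over PSAD2 (0.10), PSBQ1 over PSBQ2 (-0.37), FD1 over FD2 (-0.36) and LFNR1 over LFNR2 (0.63) did not pass, with exact permutation adjusted p from 0.15 to 0.77. Without 360 min replicate 1, whose ratio was -0.93 against 0.32 to 0.63 in the other late libraries, PSAD1 over PSAD2 differed by 0.33 (exact permutation adjusted p = 0.031).

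**Figure D4:**
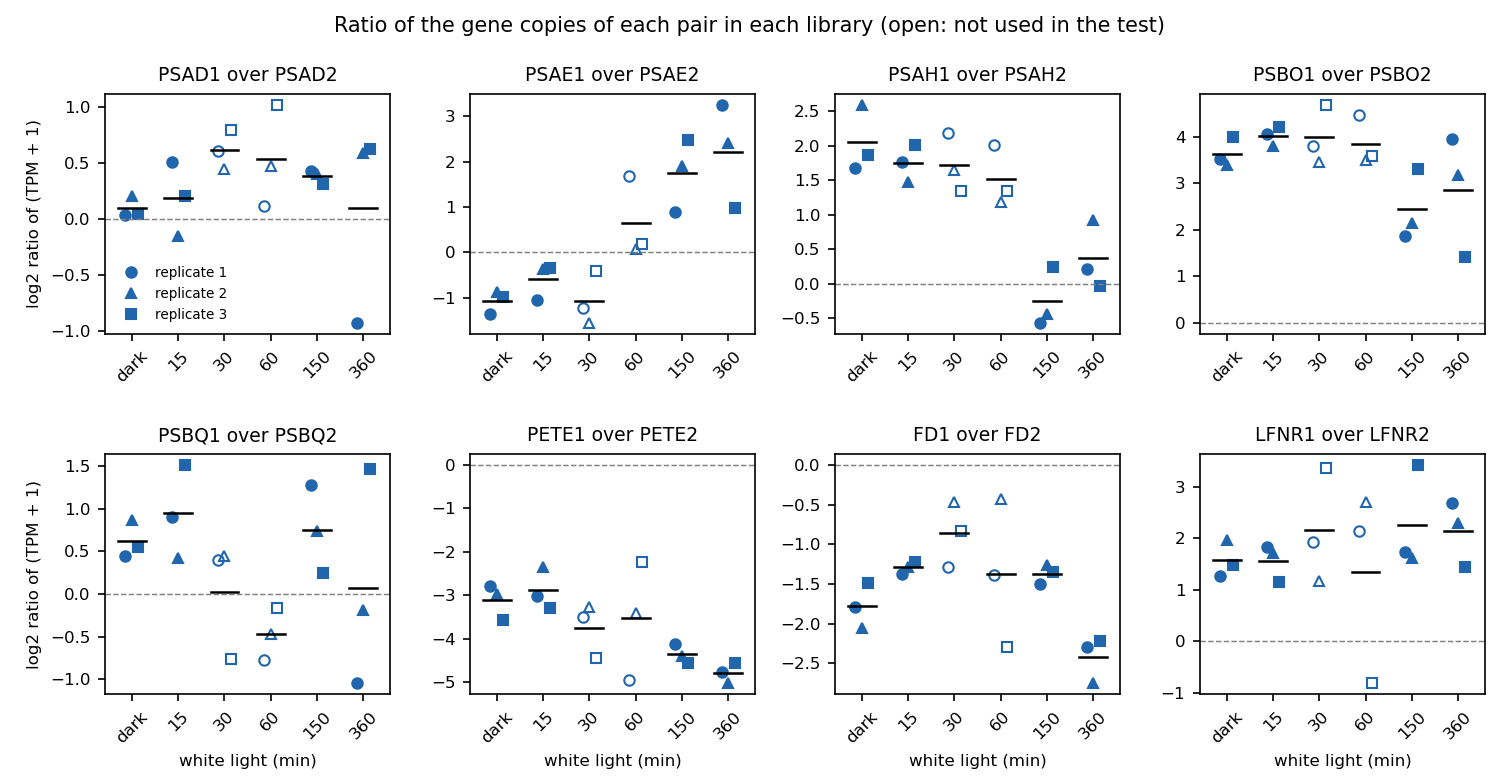
Log2 ratio of TPM plus 1 of the first over the second copy of each pair in each library against WL exposure; symbols give the replicate, bars the group mean of 3 libraries, filled symbols the libraries used in the test, and the dashed line equal levels. PSAE1 over PSAE2 crosses from below to above equal levels, while PSAH1 over PSAH2 and PETE1 over PETE2 move down.

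The copies share few 31-base words: at most 0.54% of those of any of these transcripts occurred in its paired copy. These shares, and those below, come from RefSeq transcripts and not from the reference that the authors used for counting. Overlapping genes are less certain, because no source used here says whether reads were assigned by strand. PSAH1 shares 49.9% of its 31-base words with other genes and overlaps AT3G16130 on the opposite strand by 788 bases, PSAG shares 59.9% (AT1G55673, 479 bases), PSAE1 30.9% (AT4G28755, 436 bases), PSAH2 21.4% (AT1G52240, 174 bases) and LFNR1 10.7% (AT5G66180, 191 bases). The antisense partner of PSAE1 was listed at 0 to 1024 TPM at 360 min and 753 to 2012 TPM at 150 min, against 30.04 to 446.5 TPM in the dark. That of PSAG was at 39.1 to 596 TPM at 360 min, against 0 to 277 TPM in the dark. That of PSAH1 was at 2.57 to 15.4 TPM at 360 min, against 0.173 to 6.48 TPM in the dark, and reached 213.7 TPM in a 60 min library. That of PSAH2 stayed at or below 1.94 TPM in every library.

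Sequences before the annotated starts are shown for the 3 pairs whose ratios did not overlap in the full test, since the copies differ there. Each is the 250 bases upstream of the gene model in RefSeq's annotation of TAIR10.1, printed 5′ to 3′ on the strand of the gene. Capitals mark matches to a G-box (CACGTG, both strands), the core of an I-box (GATAAG, both strands, so also its reverse complement) or a TATA box (TATAAA, sense strand only); no match overlapped another. The windows are chr4:14204062-14204311 (minus strand) for PSAE1, chr2:8736484-8736733 (plus) for PSAE2, chr3:5469595-5469844 (minus) for PSAH1, chr1:19454548-19454797 (plus) for PSAH2, chr1:28554931-28555180 (minus) for PETE1 and chr1:7043393-7043642 (minus) for PETE2.
PSAE1: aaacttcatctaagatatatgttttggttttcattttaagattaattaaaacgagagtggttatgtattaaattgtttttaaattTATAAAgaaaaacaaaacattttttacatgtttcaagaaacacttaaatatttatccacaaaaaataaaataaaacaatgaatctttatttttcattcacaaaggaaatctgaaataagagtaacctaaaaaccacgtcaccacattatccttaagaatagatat
PSAE2: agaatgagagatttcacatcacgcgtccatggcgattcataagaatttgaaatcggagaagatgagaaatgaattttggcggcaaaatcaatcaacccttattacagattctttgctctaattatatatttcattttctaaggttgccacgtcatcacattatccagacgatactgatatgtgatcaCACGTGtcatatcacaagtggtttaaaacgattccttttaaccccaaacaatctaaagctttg
PSAH1: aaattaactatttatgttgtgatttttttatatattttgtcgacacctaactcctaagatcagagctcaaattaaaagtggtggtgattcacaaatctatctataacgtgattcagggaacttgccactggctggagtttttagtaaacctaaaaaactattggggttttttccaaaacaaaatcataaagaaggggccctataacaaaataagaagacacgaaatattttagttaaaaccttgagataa
PSAH2: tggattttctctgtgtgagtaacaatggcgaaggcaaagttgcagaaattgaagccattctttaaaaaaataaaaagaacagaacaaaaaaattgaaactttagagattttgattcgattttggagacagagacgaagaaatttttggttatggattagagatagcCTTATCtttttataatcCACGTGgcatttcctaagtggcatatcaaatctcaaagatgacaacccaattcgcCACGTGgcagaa
PETE1: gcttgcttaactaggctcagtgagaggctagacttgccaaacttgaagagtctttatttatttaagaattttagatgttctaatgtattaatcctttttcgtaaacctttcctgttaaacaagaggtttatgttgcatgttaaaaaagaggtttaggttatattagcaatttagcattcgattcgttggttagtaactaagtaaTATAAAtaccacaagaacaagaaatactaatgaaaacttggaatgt
PETE2: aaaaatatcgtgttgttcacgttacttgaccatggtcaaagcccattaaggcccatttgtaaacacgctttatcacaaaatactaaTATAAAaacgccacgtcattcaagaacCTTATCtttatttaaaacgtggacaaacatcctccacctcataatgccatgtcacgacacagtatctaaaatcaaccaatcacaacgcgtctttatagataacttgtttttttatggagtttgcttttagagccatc

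PSAH2, the copy that rose more, had G-boxes starting at -67 and -12 from the annotated start and an I-box core at -84, whereas the PSAH1 window held no match. In the PSAE pair the order was the other way: PSAE2, which did not pass the test, had a G-box at -63, and PSAE1 had only a TATAAA at -165. PETE2 had an I-box core at -137 and a TATAAA at -164, and PETE1 a TATAAA at -46. Over all 32 genes, a G-box was found in 6 (18.8%, against 6.49% of 27443 annotated windows), an I-box core in 8 (25%, against 12.3%) and TATAAA in 10 (31.2%, against 32.9%). The other G-box windows were those of PSBQ1, PSBQ2, PSBTN and ATPD. A match is a run of letters, and its use was not measured.

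Of the 32 genes, 19 had 1 transcript in the reference used by the authors and 13 had more. Where there were several, the split between them varied widely between libraries: 1 PSBO1 form carried 0.00023% to 100% of the gene's TPM in single libraries. No comparison of forms was made.

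Other genes of the same pathway were listed by gene identity, also with earlier results of these data known. Of 52 listed, 49 were tested, and at 360 min 23 were called higher and 0 lower (all genes 3.47% higher), with 11 higher at 150 min and 1 at 60 min. The median log2 fold change of the 49 was 2.18, and 5 of them had a value below 0 that was not called: PTOX -0.98, FD3 -0.95, LPA1 -0.53, PGRL1B -0.19 and ATPC2 -0.18. Among further subunits, isoforms and regulators, 8 of 19 rose: PPL1, a PSBP-like protein (4.74 ± 0.58), PSBS, which triggers energy quenching (3.95 ± 0.85), the ferredoxin-like FDC2 (2.95 ± 0.60) and CURT1A, which bends the thylakoid margin (2.59 ± 0.57), had the largest changes.

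Of the nuclear subunits of the NDH complex, which carries the other route of cyclic flow, 8 of 16 rose, led by NDHU (6.60 ± 1.03), PNSL1 (4.72 ± 0.65), NDHN (3.47 ± 0.68) and PNSB4 (3.15 ± 0.54). Of the assembly factors 7 of 14 rose, led by PSB28 (5.82 ± 0.71), LQY1 (4.29 ± 0.57), PSB33 (3.83 ± 0.48) and Y3IP1 (2.63 ± 0.39), the last of which acts in photosystem I assembly. PSB28, a photosystem II assembly protein, was the gene called at 60 min (3.45 ± 0.65, edgeR adjusted p = 0.0036). The count of 23 fell to 11 without dark replicate 1 and to 14 without dark replicate 3.

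Within groups, the 32 genes tended to deviate together. Over the 18 libraries, the deviations from the group means correlated with a median r of 0.38 over 496 pairs of genes, with r above 0 in 397. The libraries share their scaling and their mix of organs, and no such value was computed for other genes, so this is a description. The genes are therefore not independent readings of the light response, and the counts above are counts of genes, not of replicates.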

How the data were processed

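Whole-seedling RNA-seq was deposited by the authors as kallisto estimated counts and TPM per transcript for each library, with a table of normalized signal for the series (gene counts divided by size factors). The submitters' processing notes name kallisto, DESeq 1.36.0 and edgeR 3.26.8. The labels and the methods differ on light intensity and library preparation, and use of strand in read assignment is not stated in the sources used here. Whole reads were recovered from that deposited signal table in 100% of 352470 values above 0 (tolerance 0.01 of a read); the count test on them called 726 genes at 360 min, against 716 here.

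Transcript values were summed to genes as length-scaled TPM counts and rounded. A gene was dropped where any group had 2 replicates or more at 0, which kept 16747 of 34212. All 18 libraries were fitted together in edgeR 4.0.16 (R 4.3.3, limma 3.58.1) with TMM scaling and the robust quasi-likelihood test (common biological coefficient of variation 0.540), Benjamini-Hochberg adjustment and a threshold of 0.01. Standard errors are the fold change divided by the root of F. DESeq2 1.42.0 was an alternative. The fit was tested on simulated data. Levels are TPM recomputed without the 2 plastid 23S genes. Copy ratios used log2 of TPM plus 1 and the exact permutation test, threshold 0.05. The methods describe the replicates as biological. Members, gene lists and tests were chosen with earlier results of these data known. All measured members were named; values in every library were given for both copies of the 8 pairs and for the largest and smallest change at 360 min in each role. Of the other pathway lists the 4 largest called changes each were named, and the 5 genes below 0 were chosen after their values were seen.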

Additional observations from a re-analysis of the deposited data

Results flagged for a closer look

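The change of PSAH2 differed between consecutive light times. Its 150 min libraries exceeded its 60 min libraries by 2.62 on the log2 scale (edgeR adjusted p = 0.0017), a difference between the effects at these times over the dark that was tested directly. The call was lost without 150 min replicate 2. No explanation was tested.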

How the results depend on the processing

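With library totals that include the 23S RNA, 0 genes were called at 60, 150 and 360 min, between 60 and 150 min, over the time course and among the other photosynthetic genes, but also only 1, 4, 0, 0 and 20 of all 16747 genes in these 5 comparisons. With totals without it, 17 were called at 360 min (493 of all genes), 0 between 60 and 150 min (15 of all genes) and 11 among the other genes. DESeq2 called 7 at 60 min, 6 from 30 to 60 min and 8 from 60 to 150 min (332, 136 and 134 of all genes). With the 23S share as covariate, an alternative chosen after seeing the data, the same counts were 7, 5 and 9 (281, 72 and 96 of all genes). From 60 to 150 min, 4 were called with no filter on low counts (48 of all genes). In an alternative also chosen after seeing the data, 2 were called without dark replicate 2 and 60 min replicate 3 (15 of all genes). The fit without the 4 libraries over 75% 23S RNA left only replicate 3 at 360 min, so its count is not given. With 360 min against the dark only, 0 pairs passed, which 3 against 3 libraries cannot do, and PSAD1 over PSAD2 was -0.000882. Without the 3 late libraries over 75% 23S RNA, also chosen after seeing the data, 4 pairs passed, and PSBQ1 over PSBQ2 turned to 0.37. With the 23S RNA kept in TPM the summed level was 4498 at 30 min and 15440 at 150 min (15439.7), and 19826 ± 18645 at 360 min. PSAE2 at 360 min turned to -0.31 with totals including 23S RNA and -0.14 without it, and ranged from -0.024 without dark replicate 1 to 0.98 without dark replicate 2. Leaving out 1 library at a time gave 2 to 5 calls at 60 min, 0 to 4 from 60 to 150 min and 11 to 24 among the other genes, and 3 to 5 pairs. Over all genes DESeq2 called 332, 832 and 1298 at 60, 150 and 360 min and 1699 over the time course, against 142, 462, 716 and 840 with edgeR. Unless a setting's construction shows it, the cause was not tested.

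Over 45 same-numbered pairs of libraries the deviations correlated with a median r of -0.05 (-0.39 to 0.42), against 0.02 for differently numbered pairs. Of 18 libraries, 8 correlated best with their own number. These values do not decide whether libraries of the same number share a batch. With a replicate block, 3, 15 and 23 of the 32 genes were called at 60, 150 and 360 min (108, 373 and 557 of all genes). That fit also called 1 from 60 to 150 min (21 of all genes), 29 over the time course (679 of all genes) and 17 of the other genes.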
